A study of Drosophila melanogaster with 31 samples.

Results

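Heads of adult flies that carried ectopic eye outgrowths (EEO) were compared with heads of flies from the same kind of cross that carried none, and the genes outside the heat shock families are described in most depth. The libraries were taken by their labels, tissue head with or without ectopic outgrowths, which gave 6 of the 31 samples of the series, 3 with EEO and 3 without EEO. By the study's methods, females of genotype mod07570/L8 were crossed to KrIf-1 males and both groups are their progeny, whereas the labels write only the mothers' genotype. The offspring therefore received a single mutant copy of mod from the mother, either the hypomorphic P-element insertion mod07570 or the amorphic modL8, a deletion near the tip of chromosome arm 3R, and the labels do not say which of these a head carried. The labels also do not give the number, age or sex of the flies behind each library, and only the outgrowth separates the groups by name. Poly(A) RNA of whole heads was sequenced, so a lower level of an RNA can mean fewer cells of a type or less RNA per cell, and the data cannot tell these apart.

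Modulo is the fly relative of Nucleolin, a nucleolar and chromatin protein. KrIf-1 is a neomorphic allele of Krüppel, a zinc finger transcription factor, and flies that carry it show small or rough eyes and, in a sensitised background, outgrowths from the eye. The eye is built by a network of selector genes (eyeless, sine oculis, eyes absent and others), while antenna, mouthparts and head capsule use selectors such as Distal-less, aristaless and proboscipedia. Adult heads also carry strong stress and immune programmes: heat shock factor drives chaperone genes, the Imd and Toll pathways drive antimicrobial peptides, and amino acid shortage or misfolded protein raises metabolic and repair genes.

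The 6 libraries held 13389329 to 16980785 estimated counts with EEO and 14912954 to 22695680 without EEO, and 10137 genes and transposons reached 1 cpm (estimated counts scaled to a library total of 1e+06) in at least 3 of them and were tested. Replicate 1 with EEO stood apart from the other 5 libraries. Its correlation of log2 cpm with the other replicates with EEO was 0.968 and 0.95, whereas replicates 2 and 3 with EEO reached 0.986 with each other and the 3 libraries without EEO reached 0.989 to 0.992. It had 95 genes more than 4-fold above, and 30 genes more than 4-fold below, the mean of the other replicates with EEO. By the same count replicate 3 with EEO had 31 above and 52 below, more below than replicate 1, and replicate 2 had 5 and 10. Replicate 1 with EEO was high for cuticle protein and proteasome genes and low for the clock gene per, which stood at 74.8 cpm there and at 175 and 192 cpm in replicates 2 and 3 with EEO. For this reason the main counts, and the results that turned on that library, are also given without it. Replicates 1 and 3 without EEO held transcripts that the others nearly lacked: CG34220 was at 3.12, 5.9 and 18.7 cpm with EEO and at 2331, 24.8 and 799 cpm without EEO, and alphaTry, a gut trypsin, was listed at 0 in 4 libraries and at 22.7 and 28.7 cpm in those 2. The rhodopsin gene ninaE, a marker of photoreceptors, was at 9081 to 10176 cpm with EEO and at 8775 to 9963 cpm without EEO. Of the 7 photoreceptor markers, 2 had positive log2 fold changes, with a median of -0.142, or -0.225 without replicate 1 with EEO. In 3 of the 7 all libraries with EEO lay below all libraries without EEO, beside 12.1% of all features. With all 6 libraries no member of the 11 marker lists (neurons, glia, fat body, muscle, gut, gonads and others) passed edgeR's test, whereas DESeq2 called 2 of 8 fat body markers, and without replicate 1 with EEO the fat body marker apolpp fell and the imaginal disc marker Dll rose. Of 8 other neuron and 6 glia markers, 0 had a positive log2 fold change with all 6 libraries (medians -0.184 and -0.128). In 5 markers of each list all libraries with EEO lay below all without, beside the same 12.1% of all features. Without replicate 1 with EEO, 1 neuron and 0 glia markers were positive.

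In edgeR's quasi-likelihood test at an adjusted p under 0.05, 50 of the 10137 features were higher with EEO (0.493%) and 3 were lower (0.0296%). Of the 50, 17 belonged to the heat shock families, 2 were transposons and 31 were other genes. All 3 that were lower were genes outside these families. In all 34 genes outside the families the 3 libraries with EEO lay on one side of the 3 without. Of all tested features, 8.37% were separated in this way upwards and 12.1% downwards. Without replicate 1 with EEO, 165 genes outside the families were higher and 42 lower, in a fit in which 1.91% of all features were called higher and 0.418% lower. That fit kept 27 of the 34 genes, and the other 7 no longer passed the filter on low counts. Leaving out any other library lowered the number of higher genes outside the families, to 12 and 11 without replicate 2 or 3 with EEO and to 9, 6 and 5 without replicate 1, 2 or 3 of the heads without EEO. Their lower counterparts then numbered 3, 0, 0, 2 and 0. DESeq2 on the same counts called 1.98% of all features higher and 0.523% lower, 175 and 53 of them genes outside the families, with all 34 among these. The 34 kept their sign in every alternative that tested them. Those alternatives reused the libraries that had called these genes, with groups that did not overlap, so a kept sign is no separate support. Only pirk, Gadd45 and the alphagamma-element RNA passed the threshold whichever of the 6 libraries was left out.

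**Figure D1:**
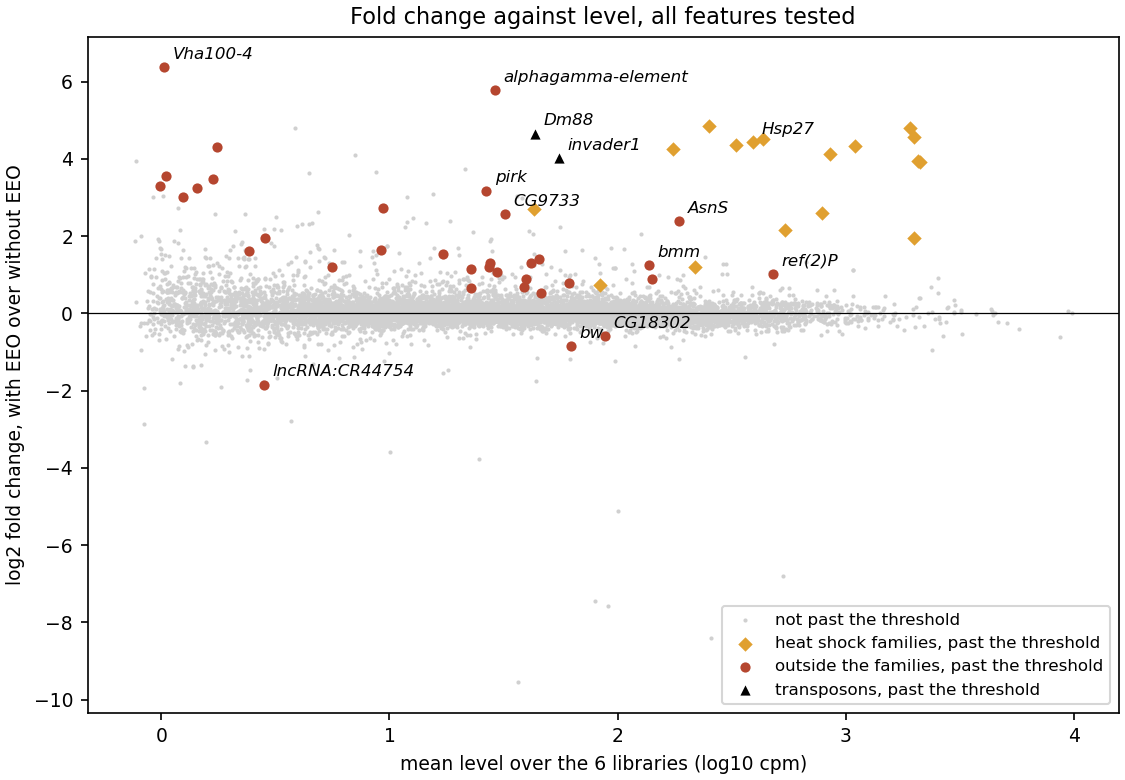
Each point is 1 of the 10137 genes and transposons tested, with the mean level over the 6 libraries (log10 cpm) on the horizontal axis and the log2 fold change, with EEO over without EEO, on the vertical axis. Diamonds mark 17 heat shock family genes, circles 34 other genes and triangles 2 transposons past the threshold. Below 0 lie 3 of the circles, and the unnamed grey points below -6 are genes such as CG34220 that 2 libraries without EEO held in excess.

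The heat shock families set the scale of the comparison. Of 42 listed members, which include small heat shock proteins, Hsp70 and Hsc70 chaperones, Hsp83, DnaJ co-chaperones and heat shock factor itself, 38 were tested, 17 rose and none fell. Their log2 fold changes ran over 0.74 to 4.86, and the list as a whole took 37320, 32800 and 31240 cpm with EEO, against 7670, 7250 and 7011 cpm without EEO. The median over the tested members was 0.73, beside 0.01 for all features. Without replicate 1 with EEO, 21 of 37 tested members rose and none fell, with a median of 0.59. Hsp27, a small heat shock protein, was at 903, 673 and 675 cpm with EEO and at 35.9, 37.7 and 33.0 cpm without EEO (log2 fold change 4.43, standard error 0.18, adjusted p = 0.000256, edgeR). Hsf, the transcription factor that drives the family, rose far less (log2 fold change 0.74, standard error 0.08, adjusted p = 0.0139, edgeR). Stv, a co-chaperone of Hsp70, lay between them at 2.15. The 6 Hsp70 copies are nearly identical and exchange fragments in the authors' estimates, so their individual values are uncertain.

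Among the genes outside these families, pirk had one of the smallest adjusted p values and replicates close together. Pirk is a cytoplasmic inhibitor of the Imd pathway that holds back its peptidoglycan receptors. It was at 46.7, 48.0 and 48.8 cpm with EEO and at 6.37, 5.17 and 4.71 cpm without EEO. The groups were far apart (log2 fold change 3.18, standard error 0.13, adjusted p = 0.000256, edgeR), and as far without replicate 1 (3.18). Only 1.18% of its fragments mapped to a single transcript, because its transcripts overlap, so the unique counts, where it did not pass, held 7, 5 and 10 fragments with EEO and 0, 6 and 1 without EEO.

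Pirk was the only one of 35 tested antimicrobial and immune effector genes to pass. The peptides themselves varied widely within both groups. Metchnikowin (Mtk) was at 1.86, 17.5 and 189 cpm with EEO and at 39.5, 143 and 60.5 cpm without EEO. Attacin C (AttC) was at 13.1, 63.5 and 713 cpm with EEO and at 172, 332 and 318 cpm without EEO. For both peptides the groups overlapped entirely, and the list median was a log2 fold change of 0.15, or 0.39 without replicate 1 with EEO. Listericin, another antibacterial gene, was at 60.1, 95.4 and 91.3 cpm with EEO and at 41.5, 41.0 and 43.8 cpm without EEO. Its groups did not overlap, yet it reached an adjusted p of 0.0742 with all libraries and of 0.000364 without replicate 1 (edgeR). CG9733, which did pass, was at 54.0, 63.9 and 46.3 cpm with EEO and at 12.3, 9.01 and 7.05 cpm without EEO (log2 fold change 2.57, standard error 0.23, adjusted p = 0.00595, edgeR). The 4 Turandot genes tested, secreted stress peptides of the fat body, gave no call in edgeR (1 at an unadjusted p under 0.05, 1 with DESeq2), with a median of -0.79 and TotA at 252, 644 and 157 cpm with EEO and at 568, 786 and 515 cpm without EEO.

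The alphagamma-element RNA (lncRNA:alphagamma-element:CR32865), a non-coding transcript of the Hsp70 gene cluster on 3R, lay next to Hsp70Ba in the reference gene order. It was at 70.1, 56.7 and 44.8 cpm with EEO and at 1.26, 1.01 and 0.93 cpm without EEO (log2 fold change 5.77, standard error 0.25, adjusted p = 0.000256, edgeR), and it passed in every alternative. It was the only one of the 34 genes within 5 genes of a called heat shock gene (2.94%), beside 60 of the 9915 genes tested outside the families (0.605%). It was also the only one of the 34 that shared fragments with another sequence, and that sequence was the transposon invader1. Of the transposons, the retrotransposons invader1 and Dm88 passed the threshold in the edgeR fit of all 6 libraries, while 6 passed without replicate 1 with EEO and 3 with DESeq2, invader1 and Dm88 among them. Invader1 was at 117, 107 and 87.6 cpm with EEO and at 5.71, 7.78 and 6.16 cpm without EEO. Of its fragments, 60.9% mapped to invader1 alone, and on these unique counts its log2 fold change was 3.52, against 4.02 on all estimated counts. For the alphagamma-element RNA 75.9% were unique and the log2 fold change on them was 5.60. Dm88 shared no fragments with other sequences (log2 fold change 4.65, adjusted p = 0.00128, edgeR).

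Gadd45, trbl and ref(2)P rose by similar amounts and were picked from the called genes, not from 1 list. Gadd45, a growth arrest and DNA damage protein that activates stress kinases, was at 35.2, 38.8 and 39.7 cpm with EEO and at 15.0, 17.6 and 18.2 cpm without EEO (log2 fold change 1.19, standard error 0.10, adjusted p = 0.0056, edgeR). The pseudokinase gene trbl (tribbles), which slows cell division and damps insulin signalling, averaged 39.7 ± 2.75 cpm with EEO and 19.2 ± 0.699 cpm without EEO (SD, n = 3 each), and its log2 fold change was 1.08 (adjusted p = 0.00631, edgeR). The autophagy receptor gene ref(2)P, the fly p62, was at 657, 626 and 623 cpm with EEO and at 336, 307 and 323 cpm without EEO (log2 fold change 1.01, adjusted p = 0.00738, edgeR). In each of these the groups were separated by far more than the range within a group. AsnS, which encodes asparagine synthetase, changed more and varied more, at 423, 254 and 260 cpm with EEO and 63.6, 45.1 and 75.3 cpm without EEO (log2 fold change 2.38, standard error 0.28, adjusted p = 0.0224, edgeR). CG7130, whose product carries a DnaJ domain, was at 24.6, 11.1 and 12.7 cpm with EEO and at 3.02, 1.78 and 2.78 cpm without EEO (log2 fold change 2.71, adjusted p = 0.0443, edgeR). The list of heat shock families holds DnaJ co-chaperones but not CG7130, so CG7130 is counted among the genes outside them. For AsnS and CG7130 the highest value was that of replicate 1 with EEO, and without it both stayed past the threshold (adjusted p = 0.00628 for AsnS and 0.00702 for CG7130, edgeR).

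With all 6 libraries, ref(2)P was the only one of 17 tested protein quality control genes to pass (median log2 fold change 0.10), and Gadd45 the only one of 18 endoplasmic reticulum stress genes (median 0.06). None of the 21 JNK and wound genes passed (median 0.23), with 3 at an unadjusted p under 0.05 and 1 with DESeq2. Of 42 detoxification genes, GstE7, a glutathione S-transferase, rose to 32.8, 21.6 and 21.7 cpm with EEO, against 10.5, 8.55 and 8.11 cpm without EEO (log2 fold change 1.53, adjusted p = 0.0436, edgeR), and the list median was 0.13. An unadjusted p under 0.05 was reached by 15 of the 42 (9.41% of all features). DESeq2 called 13 of them, where it called 1.98% of all features higher and 0.523% lower. All libraries with EEO lay above all without in 14 genes and below in 4, beside 8.37% and 12.1% of all features. Without replicate 1 with EEO, 6 of 40 tested detoxification genes rose and none fell, all of them glutathione S-transferases (GstD1, GstE1, GstE3, GstE6, GstE7 and GstE8), where 1.91% of all features rose. In the same fit the polyubiquitin gene Ubi-p63E also rose, with 1043, 1304 and 1348 cpm with EEO and 922, 912 and 945 cpm without EEO (log2 fold change 0.53, adjusted p = 0.00785, edgeR), and so did Socs36E, a feedback inhibitor of JAK/STAT signalling (log2 fold change 0.52, adjusted p = 0.0111, edgeR).

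In metabolism, bmm, the brummer triglyceride lipase that frees stored fat, was at 167, 168 and 242 cpm with EEO and at 90.7, 68.3 and 89.0 cpm without EEO (log2 fold change 1.25, standard error 0.18, adjusted p = 0.0487, edgeR). It was the only one of 32 sugar and lipid metabolism genes to pass with all 6 libraries (2 without replicate 1 with EEO, 4 with DESeq2), and its adjusted p was among the largest of the 34 genes. The gluconeogenic gene Pepck1 stood at 1546, 1061 and 1774 cpm with EEO and at 740, 637 and 690 cpm without EEO, without passing (adjusted p = 0.0912, edgeR), and the gene CG45087 carried the same values, so its reads cannot be assigned to either. The remaining genes with the smallest adjusted p values were CG15673 (log2 fold change 1.30), olf186-M (1.40), CG13116 (1.30) and CG8908 (1.94), all with groups that did not overlap. CG8908 was rare, at 4.18, 4.48 and 4.77 cpm with EEO and at 1.34, 1.09 and 1.15 cpm without EEO. CG14961 (1.64) and CG7131 (1.61) complete the 15 largest rises, and CG7131 with bmm lay just inside the threshold (adjusted p = 0.0487 each, edgeR), while CG12268 and the repressor gene hry (hairy) lay just outside it (adjusted p = 0.0536 each, edgeR). A few further genes, named here after their values were seen, were the JAK/STAT modulator ken (log2 fold change 0.89), the serpin Spn28Dc (0.79) and Dhdds (1.14), which makes the lipid carrier of protein glycosylation.

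Rare transcripts, 7 in number, gave many of the largest fold changes. They stayed under 1 cpm in every library without EEO and so could be tested only because they were present with EEO. The 7 were Vha100-4, CG31296, CG8252, CG12990, Ppi1, CG43062 and vrs. Vha100-4, a subunit gene of the vacuolar proton pump, had 93 counts in the 3 libraries with EEO and 1 count in the 3 without, a ratio of 113 with an exact 95% counting interval of 19.7 to 4490. CG31296 was at 3.45, 3.66 and 2.89 cpm with EEO and at 0.067, 0.40 and 0.044 cpm without EEO (log2 fold change 4.30, adjusted p = 0.0344, edgeR). Vrs, at 2.72, 2.39 and 1.53 cpm with EEO and 0.34, 0.29 and 0.22 cpm without EEO, lay 7 genes from Hsp70Ba. Of all 34 genes, 14 overlap another gene in the reference annotation (Vha100-4 with cona, AsnS with chb and bw with mi, for example), counting whole gene spans with their introns. None of these 14 shared fragments with another gene in the authors' estimates.

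The genes that fell numbered 3. The eye pigment gene bw (brown) encodes the partner of the White transporter that brings the precursors of the red pteridine pigments into pigment cells. It was at 44.6, 47.5 and 39.5 cpm with EEO and at 75.0, 82.0 and 86.6 cpm without EEO (log2 fold change -0.86, standard error 0.11, adjusted p = 0.0263, edgeR). The whole range with EEO lay below the whole range without EEO. CG18302 was at 65.2, 72.5 and 69.4 cpm with EEO and at 106, 102 and 111 cpm without EEO (log2 fold change -0.60, adjusted p = 0.0317, edgeR). The non-coding RNA lncRNA:CR44754 was rare, at 1.06, 1.42 and 1.12 cpm with EEO and at 4.43, 4.36 and 4.45 cpm without EEO (log2 fold change -1.85, adjusted p = 0.0114, edgeR). All 3 stayed past the threshold without replicate 1 with EEO, and none of them did without replicate 3 with EEO or without replicate 1 or 3 of the heads without EEO.

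**Figure D2:**
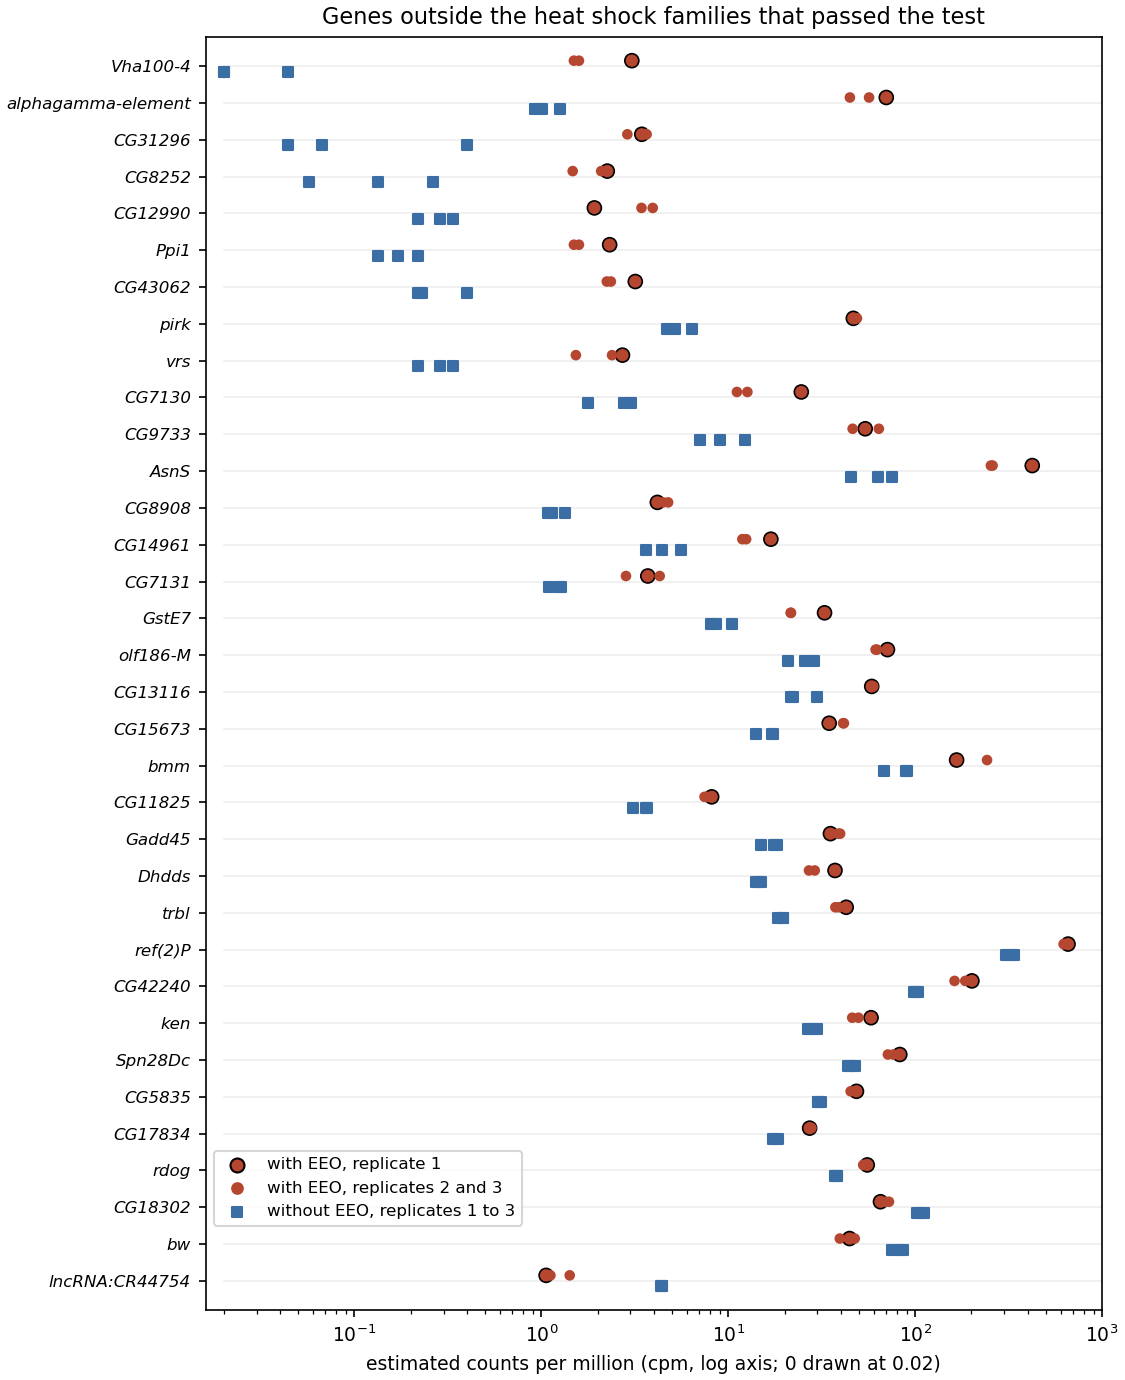
Levels of the 34 genes outside the heat shock families that passed the test, 1 gene per line, in cpm on a log axis; circles are the 3 libraries with EEO (replicate 1 outlined) and squares the 3 without EEO. In 31 genes all circles lie to the right of all squares and in the bottom 3 genes, CG18302, bw and lncRNA:CR44754, to the left.

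Of 22 eye pigment genes tested, bw was the single call with all 6 libraries, and the list median was -0.10. All libraries with EEO lay below all without in 4 of the 22 and above in 1, beside 12.1% and 8.37% of all features. Rab32 was 1 of the 4, at 486, 486 and 378 cpm with EEO and at 606, 595 and 619 cpm without EEO (log2 fold change -0.40, adjusted p = 0.393, edgeR). The gene of the partner transporter, w, lay in the same direction without passing: it was at 33.9, 28.0 and 26.6 cpm with EEO and at 37.1, 32.6 and 32.7 cpm without EEO (log2 fold change -0.18, adjusted p = 0.67, edgeR), with overlapping groups. The direction of the pteridine gene se (sepia) rested on replicate 1. It was at 106, 29.1 and 26.6 cpm with EEO and at 39.2, 39.4 and 39.9 cpm without EEO, so that its log2 fold change was 0.50 with that library (adjusted p = 0.76, edgeR) and -0.50 without it (adjusted p = 0.024, edgeR).

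The genes of phototransduction, the cascade by which rhabdomeric photoreceptors turn light into current, did not pass in edgeR's test: 0 of 35, with a median of -0.08, or -0.16 without replicate 1. At an unadjusted p under 0.05 there were 6 (9.41% of all features), and DESeq2 called 1. In 14 of the 35 genes the 3 libraries with EEO all lay below the 3 without EEO, and in 3 genes all lay above, where 12.1% of all features lay below and 8.37% above. Laza, a lipid phosphatase of the photoreceptor, was at 77.0, 84.8 and 93.7 cpm with EEO and at 131, 117 and 143 cpm without EEO (log2 fold change -0.59, adjusted p = 0.0932, edgeR), and passed only without replicate 1 (adjusted p = 0.0413, edgeR). The ultraviolet opsin genes lay higher instead, Rh3 at 249, 196 and 161 cpm with EEO and at 130, 145 and 147 cpm without EEO, and Rh4 at 81.5, 96.7 and 52.4 cpm with EEO and at 35.8, 51.0 and 49.2 cpm without EEO, neither past the threshold (adjusted p = 0.367 for Rh3 and 0.365 for Rh4, edgeR). For both the groups did not overlap.

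None of the 38 tested eye and appendage selectors passed edgeR's test with all 6 libraries (5 at an unadjusted p under 0.05, 2 with DESeq2), and the list median was 0.09. The retinal determination genes were near 0, with log2 fold changes of 0.07 for ey (eyeless), 0.19 for so (sine oculis) and -0.11 for eya (eyes absent). Without replicate 1 with EEO, 5 of the 38 rose and none fell (1.91% of all features rose in that fit). The 5 are known from antenna, leg and mouthpart development, but other such genes of the list did not pass in that fit. Lim1, ct, Antp and hth had log2 fold changes of -0.0047, -0.035, -0.029 and 0.073 there, and Scr, Dfd and lab of 0.41, 0.31 and 0.32. Each of the 5 except elB had lower values in replicate 1 with EEO than in replicates 2 and 3. Dll (Distal-less), the selector of distal appendages, was at 40.6, 54.5 and 54.4 cpm with EEO and at 41.4, 40.4 and 41.5 cpm without EEO (log2 fold change 0.42 without replicate 1, adjusted p = 0.0142, edgeR). The arista selector gene ss (spineless) was at 19.8, 39.2 and 36.6 cpm with EEO and at 28.8, 29.7 and 27.9 cpm without EEO (0.40, adjusted p = 0.042, edgeR). For Dll and ss replicate 1 thus lay within or below the range without EEO. The mouthpart Hox gene pb (proboscipedia) was at 10.5, 16.0 and 15.8 cpm with EEO and at 8.38, 10.1 and 7.40 cpm without EEO (0.89, adjusted p = 0.0412, edgeR). The rare homeobox gene al (aristaless) was at 1.92, 2.69 and 2.47 cpm with EEO and at 1.07, 1.09 and 0.88 cpm without EEO (1.36, adjusted p = 0.0416, edgeR), and elB at 75.1, 73.9 and 79.4 cpm with EEO and 54.9, 56.6 and 57.8 cpm without EEO (0.45, adjusted p = 0.0161, edgeR). In pb, al and elB all 3 libraries with EEO lay above the 3 without EEO.

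**Figure D3:**
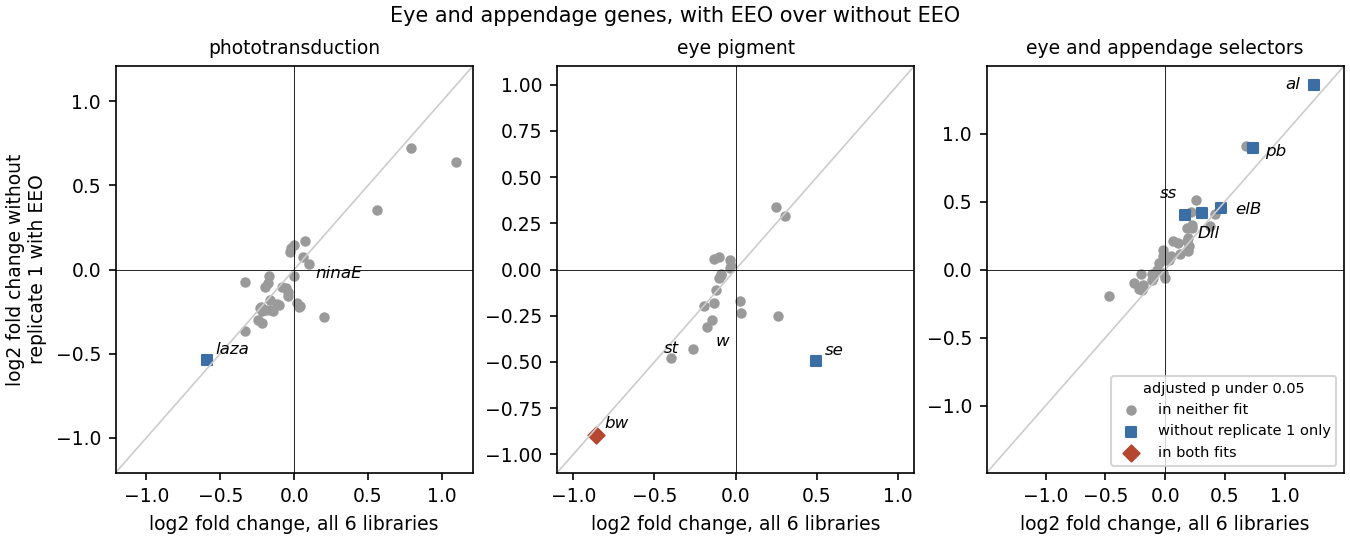
Log2 fold change, with EEO over without EEO, of phototransduction, eye pigment and eye and appendage selector genes in the fit of all 6 libraries (horizontal) and in the fit without replicate 1 with EEO (vertical), with equal values on the grey diagonal. Diamonds passed the threshold in both fits (bw), squares only without replicate 1 (laza, se, Dll, ss, pb, al and elB) and grey circles in neither.

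Several lists had raised medians that belonged mostly to replicate 1 with EEO. All 32 tested proteasome subunit genes had positive log2 fold changes with a median of 0.32, yet relative to the mean without EEO the list median was 0.83 in replicate 1 and -0.10 and -0.12 in replicates 2 and 3. Without replicate 1, 5 of the 32 were positive and the median was -0.09. Oxidative phosphorylation genes had 67 of 69 positive and a median of 0.10 with all libraries, and 0 positive and -0.15 without replicate 1. Relative to the mean without EEO their list median was 0.43 in replicate 1, -0.05 in replicate 2 and -0.27 in replicate 3, so replicate 3 departed as well. Cuticle protein genes of the Cpr family had medians of 0.40 with and -0.15 without that library, in which their summed level was 3085 cpm, against 1437 and 994 cpm in replicates 2 and 3 with EEO and 1245 to 1424 cpm in the libraries without EEO. Cytoplasmic ribosomal protein genes were positive in 80 of 81 cases (median 0.23), and in 77 of 81 cases with a median of 0.07 without replicate 1. None of the members of these 4 lists passed in either edgeR fit. At an unadjusted p under 0.05 there were 3 cuticle protein genes, and DESeq2 called 1 of them, with 0 in the other 3 lists.

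The other lists gave no call in edgeR with all 6 libraries. These were cell proliferation (24 tested, median 0.35), odorant-binding proteins (28, 0.27), digestive enzymes (9, -0.14), neuropeptides (33, 0.06), circadian clock (14, -0.03), piRNA pathway (18, -0.03), siRNA pathway (7, -0.01) and sex markers (10, -0.03). An unadjusted p under 0.05 was reached by 10 of 28 odorant-binding protein genes, 5 of 24 proliferation genes and 0 to 2 genes in each of the other lists, beside 9.41% of all features, and DESeq2 called 3 odorant-binding protein genes and none elsewhere in these lists. Obp49a rose when replicate 1 with EEO was left out, at 174, 156 and 152 cpm with EEO and at 119, 117 and 118 cpm without EEO (log2 fold change 0.39, adjusted p = 0.0127, edgeR). Obp19c fell in that fit, at 8.62, 8.81 and 9.36 cpm with EEO and at 13.4, 13.7 and 14.1 cpm without EEO (-0.58, adjusted p = 0.0393, edgeR). The neuropeptide gene Orcokinin rose there, at 26.7, 36.3 and 39.6 cpm with EEO and at 29.8, 28.2 and 26.7 cpm without EEO (0.44, adjusted p = 0.042, edgeR), with replicate 1 with EEO inside the range without EEO. The proliferation genes kept a median of 0.21 without replicate 1, with 20 of 23 positive and no call. Of the clock genes, per and vri rose without that library (log2 fold change 0.36 and 0.50, adjusted p = 0.0331 and 0.00905, edgeR), and both were lowest of all 6 libraries in replicate 1 with EEO, where vri was at 179 cpm, against 324 and 341 cpm in replicates 2 and 3 with EEO. The 8 head fat body markers had a median of -0.52, or -0.69 without replicate 1, and none passed edgeR's threshold with all 6 libraries (3 at an unadjusted p under 0.05, 2 with DESeq2). The yolk protein genes Yp1, Yp2 and Yp3 among them had positive log2 fold changes with all 6 libraries and negative ones without replicate 1. Yp1 and Yp2 were rare, at 0.97 to 6.10 and 0.82 to 8.29 cpm over the 6 libraries, so they say little about fat body here. The lipophorin gene apolpp, at 5395, 4747 and 4470 cpm with EEO and 6383, 6792 and 6716 cpm without EEO, was the one that fell without replicate 1 (log2 fold change -0.52, adjusted p = 0.0269, edgeR). The satiety peptide gene fit was at 21.9, 18.2 and 19.3 cpm with EEO and at 59.7, 42.7 and 102 cpm without EEO, a log2 fold change of -1.75 that did not pass (adjusted p = 0.0912, edgeR).

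**Figure D4:**
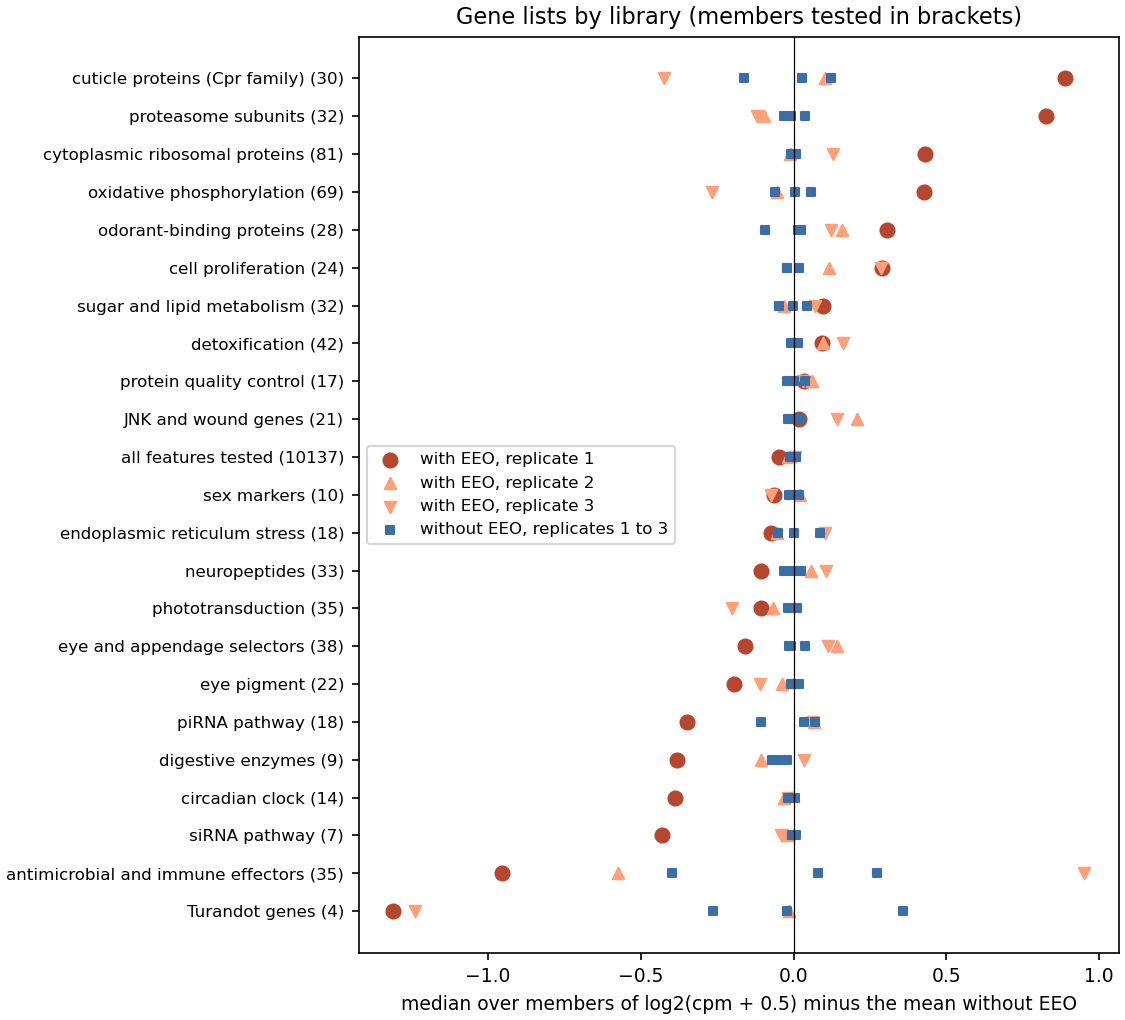
For each gene list (members tested in brackets), the median over members of log2(cpm + 0.5) minus the mean of the 3 libraries without EEO, shown per library. Replicate 1 with EEO (large circles) reaches 0.89 for cuticle proteins and 0.83 for proteasome subunits and -0.95 for antimicrobial genes, where replicates 2 and 3 with EEO (triangles) lie at 0.10 and -0.42, -0.10 and -0.12, and -0.57 and 0.95.

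The genes that define the cross did not differ between the groups by more than the replicate error. Mod was at 52.8, 37.1 and 46.8 cpm with EEO and at 49.8, 39.7 and 37.1 cpm without EEO (adjusted p = 0.788, edgeR), and Kr at 4.31, 5.30 and 5.95 cpm with EEO and at 4.43, 6.14 and 5.82 cpm without EEO (adjusted p = 0.941, edgeR). Piwi was near the filter on low counts (log2 fold change -0.23, adjusted p = 0.878, edgeR). Both mod and Kr lie near the end of their arms, so each has 11 tested neighbours among the nearest 10 on each side. None of the neighbours of mod passed, with log2 fold changes of -0.32 to 0.21 and a median of -0.05. None of those of Kr passed either, with -0.80 to 0.14 and a median of -0.18. By chromosome arm, the genes outside the heat shock families that rose numbered 3 of 1643 on X, 4 of 1774 on 2L, 9 of 2069 on 2R, 5 of 1877 on 3L and 10 of 2465 on 3R, and the genes that fell were 1 each on X, 2L and 2R. In the fit without replicate 1 with EEO, 26 rose on X, 26 on 2L, 41 on 2R, 31 on 3L and 39 on 3R, and 6, 8, 9, 7 and 11 fell on these arms, with 1 more on chromosome 4.

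The other heads in the series, from mod07570/L8 and mod07570/+ flies, share no library with this comparison. Their labels give genotypes but not crosses, so whether these 2 groups also differ from each other in background is not known. Both differ from the heads with or without EEO in parents and in sex-linked RNAs, so levels are given side by side without a test. RoX1, an RNA of the male X chromosome, spanned 666 to 1152 cpm in heads with or without EEO and 2.98 to 4.55 cpm in mod07570/L8 and mod07570/+ heads. The yolk protein gene Yp1 spanned 0.97 to 6.1 cpm in heads with or without EEO and 27340 to 57500 cpm in mod07570/L8 and mod07570/+ heads. These RNAs mark the former heads as male and the latter as female, which the labels do not state. How far sex sets the levels below was not tested. Of the 31 genes outside the families that were higher with EEO, 14 also had all 3 mod07570/L8 heads above all 3 mod07570/+ heads. Beside these stood 8.46% of all tested features and 14 of the 17 heat shock genes. Pirk was at 50.6, 91.1 and 43.6 cpm in mod07570/L8 heads and at 25.3, 12.4 and 9.13 cpm in mod07570/+ heads. CG9733 was at 50.1, 60.9 and 30.5 cpm in mod07570/L8 heads and at 11.0, 14.1 and 7.96 cpm in mod07570/+ heads. The alphagamma-element RNA was at 19.7, 25.6 and 13.9 cpm in mod07570/L8 heads and at 2.74, 1.22 and 0.91 cpm in mod07570/+ heads. The groups did not overlap in any of these, and the levels of pirk and CG9733 in mod07570/L8 heads overlapped those of heads with EEO. Ref(2)P, trbl, bmm and GstE7 were among the 17 genes without such a separation. Bmm was at 138, 148 and 108 cpm in mod07570/L8 heads and at 170, 151 and 128 cpm in mod07570/+ heads, above the heads without EEO in every library. None of the 3 genes that fell with EEO was separated. Bw was at 34.0 to 34.6 cpm in mod07570/L8 heads and at 30.5 to 46.0 cpm in mod07570/+ heads, below the heads without EEO, and CG18302 at 16.0 to 20.0 cpm in mod07570/L8 heads and 14.1 to 18.4 cpm in mod07570/+ heads, below both groups of the EEO comparison.

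**Figure D5:**
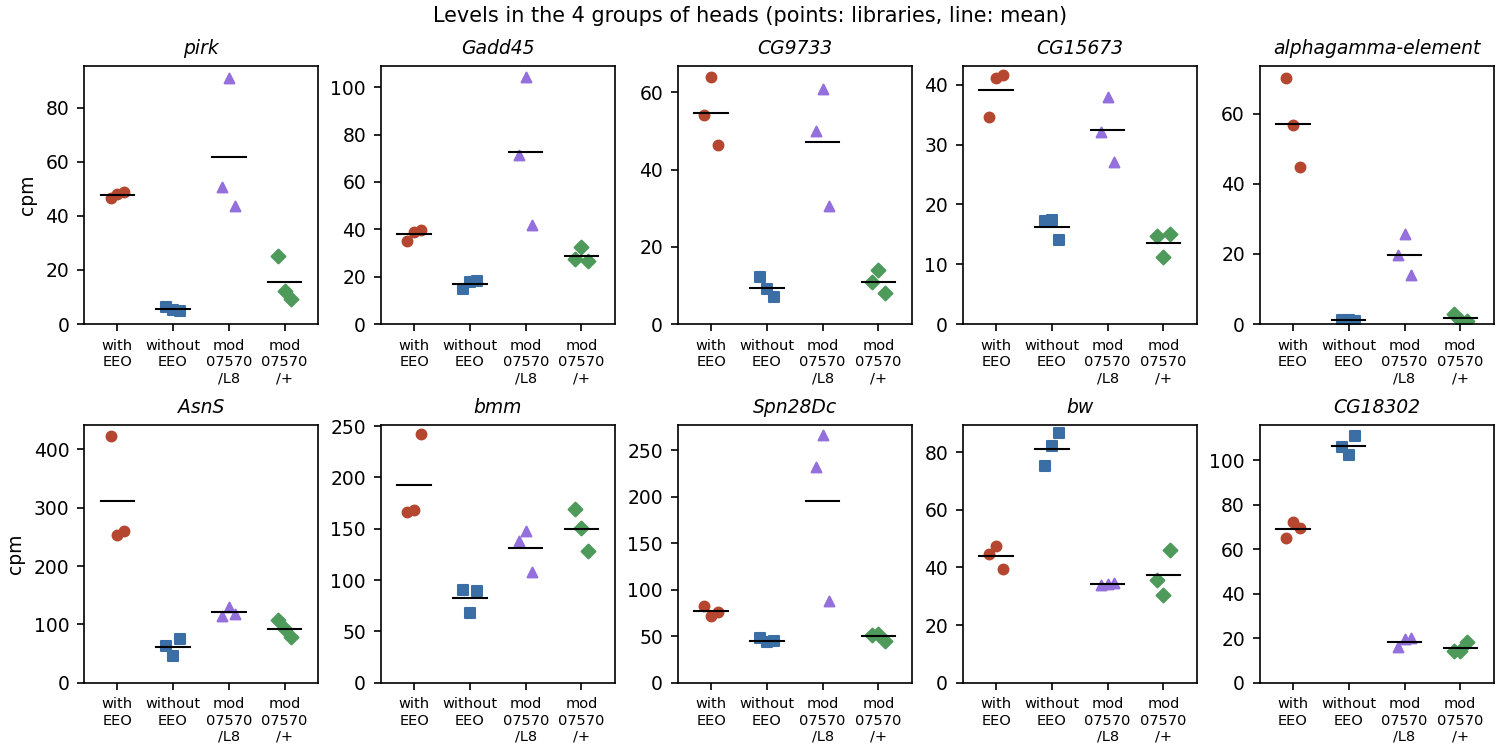
Levels (cpm, axes from 0) of 10 genes outside the heat shock families in heads with EEO, heads without EEO, mod07570/L8 heads and mod07570/+ heads; points are single libraries and lines the means of 3. Pirk, Gadd45, CG9733, CG15673, the alphagamma-element RNA and Spn28Dc are high in heads with EEO and in mod07570/L8 heads, each above its comparison group, while bw stands out only in heads without EEO, where it averages 81.2 cpm.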

How the data were processed

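Per the labels and the study's methods, poly(A) RNA of heads was made into libraries with the NEBNext Ultra kit, whose strand setting is not given in the sources used here, and the authors aligned the fragments to transposon consensus sequences and RefSeq transcripts before running eXpress. The deposited estimated counts divide ambiguous fragments among sequences, and the deposited effective counts are the same estimates adjusted for effective length by the authors' run. The deposited unique counts hold only fragments that had a single possible source in the authors' run.

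Estimated counts were summed per gene, rounded and tested by quasi-likelihood in edgeR 4.0.16 under R 4.3.3, after TMM scaling, provided that 3 or more of the 6 libraries reached 1 cpm, with Benjamini-Hochberg adjustment over all features tested. cpm is scaled by library totals. The study calls the replicates biological, but the labels name no separate flies or vials, so p-values measure only the spread between these libraries. The standard error of a fold change is that of the fitted model. DESeq2 1.42.0 was an alternative, and the fits were tested on simulated data. The other alternatives were unique and effective counts, other scalings and filters, replicate number as a block, all 12 head libraries in 1 fit, transcripts as listed, a fold minimum of 2 and each library left out. Reading the fit without replicate 1 with EEO in full was chosen after seeing the data. Intervals cover counting error only. Python 3.11.15 was used for tables.

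Genes were named by rule: mod, Kr, piwi and the called transposons, the 15 largest changes in each direction past the threshold with groups that do not overlap, the 10 smallest adjusted p values, list members that passed, and markers. Other named genes were picked after their values were seen. The members and the 23 gene lists were chosen with earlier results of these data known. The coordinates of the reference annotation, of another build than the files, were used only for gene order, arms and overlaps.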

Additional observations from a re-analysis of the deposited data

How the results depend on the processing

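With all 6 libraries, 48 genes were higher and 3 lower with EEO (31 and 3 outside the heat shock families). The counts of higher genes moved by over 1.5 times to 29 with unique counts, 198 with DESeq2 and 16 with transcripts tested as listed. Outside the families they moved to 175 with DESeq2, 3 with transcripts and 49 with all 12 head libraries in 1 fit. The lower genes became 53 with DESeq2, 0 with transcripts, 5 with the 12 libraries and 1 with a change of over 2-fold required. Leaving out single libraries gave 18 to 186 higher genes (5 to 165 outside the families) and 0 to 42 lower genes (the same range outside), with both upper ends from the fit without replicate 1 with EEO. Each of these fits has fewer samples, and the cause of the gain without replicate 1 was not tested. Kr changed sign without passing with unique counts (0.44) and effective counts (0.022). Without single libraries its log2 fold change ranged from -0.18 to 0.047, with positive values without replicate 1 with EEO and without replicate 2 of the heads without EEO (0.045), and that of piwi from -0.80 to 0.15, positive without replicate 1 with EEO.

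The deviations of same-numbered samples from their group means had correlations of 0.175, 0.00476 and 0.235. Those of samples with different numbers ran from -0.214 to 0.0466. With 3 same-numbered pairs, these values cannot decide whether the numbers pair the libraries. With a replicate block, 21 genes outside the families were higher and 3 lower, and 18 of the 34 passed there too. Not every library correlated best with its own number. Depth limits the 7 rare transcripts: the filter of at least 5 cpm left 24 of the 34 genes to test.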

Other observations

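Without replicate 1 with EEO, 180 genes outside the heat shock families passed that had not passed with all 6 libraries, 141 higher and 39 lower. Of these, 177 had the same sign in both fits. The fits share every library but that replicate, so the same sign is no separate support. Besides Listericin, the smallest adjusted p value among the 180 genes belonged to Lsp1beta, a larval storage protein gene. It was at 89.6, 36.0 and 44.6 cpm with EEO and at 142, 139 and 133 cpm without EEO (log2 fold change -1.77 without that library, adjusted p = 0.000697, edgeR), so that all 3 libraries with EEO lay below. Also among the 15 smallest, the repressor gene hry (hairy) was at 104, 150 and 148 cpm with EEO and at 69.8, 50.1 and 61.6 cpm without EEO (log2 fold change 1.31, adjusted p = 0.00692, edgeR). Rel (Relish), the NF-kappaB factor at the end of the Imd pathway, was at 242, 291 and 313 cpm with EEO and at 167, 174 and 196 cpm without EEO (log2 fold change 0.76, adjusted p = 0.00908, edgeR). In hry and Rel all 3 libraries with EEO lay above the 3 without EEO.

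Genes picked after their values were seen were PGRP-LC, a peptidoglycan receptor of the Imd pathway, PGRP-LF, an inhibitor of it, and dl (dorsal), the NF-kappaB factor of the Toll pathway. PGRP-LF was at 18.7, 25.7 and 20.4 cpm with EEO and at 14.6, 11.0 and 12.0 cpm without EEO (log2 fold change 0.89 without replicate 1, adjusted p = 0.045, edgeR). PGRP-LC changed by 0.32 (adjusted p = 0.0473) and dl by 0.46 (adjusted p = 0.0269) in the same edgeR fit. With all 6 libraries none of the 3 passed. Of 35 antimicrobial and immune effector genes tested without replicate 1, 2 rose and 0 fell. The PGRP genes tested in that list did not pass there. Their log2 fold changes were 0.63 for PGRP-LB, 0.48 for PGRP-SD, 0.32 for PGRP-SB1, -0.07 for PGRP-SA and 2.25 for PGRP-SC2 (adjusted p = 0.169, 0.413, 0.656, 0.678 and 0.364, edgeR).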
